A study of Mus musculus with 51 samples.

Results

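The 7 tumors described here grew under the skin from the mouse melanoma line B16-BL6 and were chosen by their titles, which pair that line with either a control guide RNA (3 tumors) or a guide RNA against Uba1 (sgUba1, 4 tumors). They are 7 of the 51 libraries in the series, whose other libraries come from the prostate cancer line Myc-CaP, also of the mouse. The study examined how UBA1 in cancer cells affects tumor growth and the immune response, and this experiment compared tumors with less Uba1 to tumors with the usual amount. RNA was measured by bulk sequencing of whole tumors, so cancer cells and host cells were read together. Control tumors carry the genotype label WT and a nontargeting guide, sgUba1 tumors carry the label Uba1-depletion, and the treatment label is NA for both. The depletion is partial and not a full knockout. Guides were delivered in lentiCRISPR v2, a vector that also encodes Cas9, cells were selected with puromycin, and single cells were sorted and expanded into sublines, so differences between sublines and the effect of the guide cannot be told apart. The labels do not say which guide or how many sublines the 4 tumors stand for. The methods name young adult female C57BL/6 mice as hosts for the B16 lines and injection into both flanks, and the tumors are numbered rather than the mice, so p-values measure the spread between tumors.

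The libraries held 30780288, 35693203 and 28570255 expected counts in controls 1, 2 and 4 and 27978295, 29726320, 26347998 and 30129689 in sgUba1 tumors 1 to 4. The labels give the cell type as epithelial and the tissue as skin or melanoma. Pigment cell genes were among the most abundant transcripts: on the TPM scale, which allows levels of different genes to be compared, Dct averaged 3927, Pmel 3207, Tyrp1 1808 and Mlana 1376 TPM over the 7 tumors, and the lineage regulators Sox10 and Mitf averaged 309 and 440.5 TPM. Dct ranked 17 and Pmel 26 of 40077 genes by mean TPM. Epithelial markers were at or near 0, with Krt8 at 0.00376, Krt18 at 0.0327 and Epcam at 0.138 TPM, and the prostate marker Pbsn had 0 counts in all 7 tumors. The cells were therefore read as melanoma and not as epithelium.

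UBA1 is the main E1 enzyme of the ubiquitin system: its first step charges ubiquitin, and later steps by E2 and E3 enzymes attach it to proteins, many of which the proteasome then degrades. Melanocytes descend from the neural crest, a migratory cell population of the embryo that also gives rise to Schwann cells and peripheral neurons, and melanoma cells often keep transcripts of that shared origin. Axon guidance molecules, which steer growing axons and migrating neural crest cells, act as pairs of secreted or membrane-bound ligands and their receptors, such as SLIT with ROBO, semaphorins with plexins and neuropilins, and ephrins with EPH receptors.

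The guide sequences are shown because the position of the cut decides what a change in Uba1 RNA can mean. Both match coding sequence of Uba1 and no other transcript exactly in GENCODE M21 (GRCm38), and the nontargeting guide matches 0 transcripts. Each is written 5′ to 3′ with the PAM, read from the transcript, in capitals.
sgUba1 #1: taccaatgtcctcctcccgaAGG
sgUba1 #2: tagccgtggtatcaagctagTGG
Nontargeting control: acgtgtaaggcgaacgcctt
The site of sgUba1 #1 lies at chrX:20669136-20669155 on the minus strand, in exon 5 of 26, with the cut after base 356 of the 3174 coding bases. The site of sgUba1 #2 lies at chrX:20670263-20670282 on the plus strand, in exon 6, with the cut after coding base 556. Both cuts fall in the first 6 exons, far upstream of most of the coding sequence, and the sites are present in 4 and 3 of the 6 Uba1 transcripts.

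Uba1 (ENSMUSG00000001924.15, chromosome X, 20658326 to 20683179, plus strand) was read first as a check of the labels. Its level in CPM, counts scaled to library size, was 409.5, 455 and 414 CPM in control tumors against 208, 220.2, 228 and 247 CPM in sgUba1 tumors. Every sgUba1 tumor lay below every control, and the 4 values stood closer to each other than to any control. Uba1 fell from 426 ± 24.9 CPM (SD, n = 3) to 226 ± 16.3 CPM (SD, n = 4), which is 1.89-fold lower (log2 fold change −0.92, standard error 0.0742, edgeR's adjusted p = 2.94e-04, quasi-likelihood test with Benjamini-Hochberg adjustment). The call held under 15 of 16 alternative settings and was lost in a fit of 17 tumors that added the Myc-CaP tumors. The remaining transcript was read in whole tumors, which also contain unedited host cells. The genes beside it were not called: log2 fold changes were −0.13 for Ndufb11, 0.05 for Rbm10, −0.13 for Cdk16, −0.11 for Usp11, −0.05 for Jade3 and −0.06 for Araf, with edgeR's adjusted p between 0.323 and 0.823. By p, Uba1 ranked 13 among the 17539 genes tested, and 12 other genes had a smaller p.

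Beyond Uba1, several neural and axon guidance transcripts changed by more than Uba1 itself. The guidance receptor Robo2 and its ligand Slit2 both fell, as did the semaphorins Sema3g and Sema3e, the ephrin receptor Epha7 and the glutamate receptor Gria4, whereas St18, a zinc finger transcription factor of the nervous system, rose. The lists of pigment genes, proteasome subunits, metabolic pathways and stromal markers held 0 genes that passed the test. In all, 127 of 17539 genes (0.724%) passed an adjusted p of 0.05 in edgeR's quasi-likelihood test, 47 higher (0.268%) and 80 lower (0.456%) in sgUba1 tumors, and for none of the 127 did the groups overlap. The groups were also separate for 2683 (15.3%) of all 17539 genes, so separation alone does not mark a called gene. Changes were often large: 64 of the 127 had a log2 fold change of at least 1 in size, 21 upward and 43 downward. Of the 127, 119 are protein coding, 4 are long noncoding RNAs and 4 are pseudogenes. By unadjusted p, 2861 genes were under 0.05, 1438 higher and 1423 lower, and DESeq2 and limma-voom called 527 and 135 genes.

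The count of calls depended on single tumors. It was 43 without control 1, 47 without control 2, 209 without control 4, 68 without sgUba1 1, 60 without sgUba1 2, 140 without sgUba1 3 and 320 without sgUba1 4, while all 127 genes kept their sign in each of these fits.

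**Figure D1:**
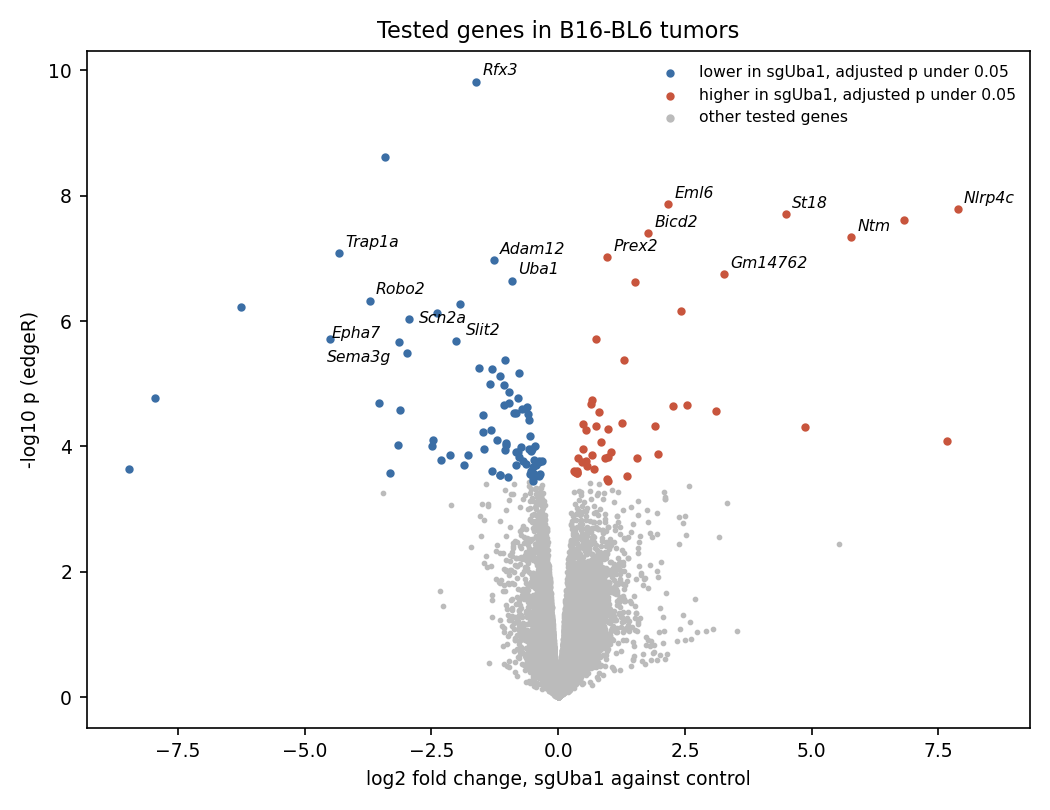
Each point is 1 of the 17539 tested genes, with its log2 fold change (sgUba1 against control, 4 against 3 tumors) on the x axis and −log10 of edgeR's unadjusted p on the y axis, blue where lower and red where higher in sgUba1 at an adjusted p under 0.05. Rfx3 (log2 fold change −1.62) stands highest, and Uba1 (−0.92) lies among smaller fold changes with low p.

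Of the 41 gene lists, which hold 1289 genes of which 1117 were tested, 8 had a member that passed and 33 had none, and 109 of the 127 genes were on no list. The list medians below are read beside the median of all tested genes, 0.01. The lists were chosen with earlier results of these data known, so shares of called members describe these data and do not test them. Summed levels were separate between groups for the E1, synapse, cholesterol, fatty acid, p53, immediate early and T and NK cell lists. Those of all other lists overlapped, and of single genes 15.3% were separate.

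In the ubiquitin system, Uba1 was the only called gene of the 10 on the E1 list (0.724% of all genes were called). Uba6, which encodes the other E1 that activates ubiquitin, had 43.2, 44.1 and 48.2 CPM in control tumors against 46.2, 42.9, 43.3 and 44.7 CPM in sgUba1 tumors. These ranges overlap (log2 fold change −0.03, standard error 0.0662, edgeR's adjusted p = 0.866). Uba7, the interferon-induced E1 of the ubiquitin-like protein ISG15, had 12.4, 7.81 and 14.95 CPM in control tumors against 20.1, 14.1, 21.8 and 11.3 CPM in sgUba1 tumors, again overlapping (log2 fold change 0.52, standard error 0.257, edgeR's adjusted p = 0.343). Sae1 and Uba2, the 2 subunits of the SUMO E1, had log2 fold changes of −0.02 and −0.14. Summed over the list, E1 transcripts were 512, 527 and 529 TPM in control tumors against 468, 459.8, 424 and 484 TPM in sgUba1 tumors, a sum that includes Uba1. Without Uba1 the other 9 genes summed to 366, 369 and 376 TPM in control tumors against 387, 379, 343 and 391 TPM in sgUba1 tumors, and the groups overlapped. Ubb, a polyubiquitin gene, stood at 953 TPM on average (log2 fold change 0.02, standard error 0.0670, edgeR's adjusted p = 0.885).

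Downstream of the E1 step, E2 conjugating enzymes held 0 called genes of 33 (median −0.04), cullins and adaptors 0 of 25 (−0.04) and deubiquitinases 0 of 55 (−0.07). Among 63 other listed ligases, only Trim9, a brain-enriched ligase that acts in axon branching, passed (0.724% of all genes passed). Trim26 and Neurl1b, ligases outside the list, rose (0.37 and 0.54, edgeR's adjusted p = 0.0410 and 0.0311, named after their values were seen). Trim9 fell, with 6.39, 6.50 and 6.99 CPM in control tumors against 4.13, 4.197, 3.61 and 4.398 CPM in sgUba1 tumors, and the groups did not overlap (log2 fold change −0.70, standard error 0.120, edgeR's adjusted p = 0.0308). That call held under 6 of 16 alternative settings, and was lost when any of controls 1, 2 and 4 or sgUba1 tumors 1, 2 and 3 was left out. Proteasome genes shared a direction without any call: 33 of 36 had a log2 fold change below 0, with a median of −0.14. Psma3, Psma7 and Psmd8, the most abundant of them, had values of −0.07, −0.15 and −0.14. Their summed level was 4553, 5059 and 5078 TPM in control tumors against 4474, 4757, 4226 and 5108 TPM in sgUba1 tumors, and the groups overlapped.

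**Figure D2:**
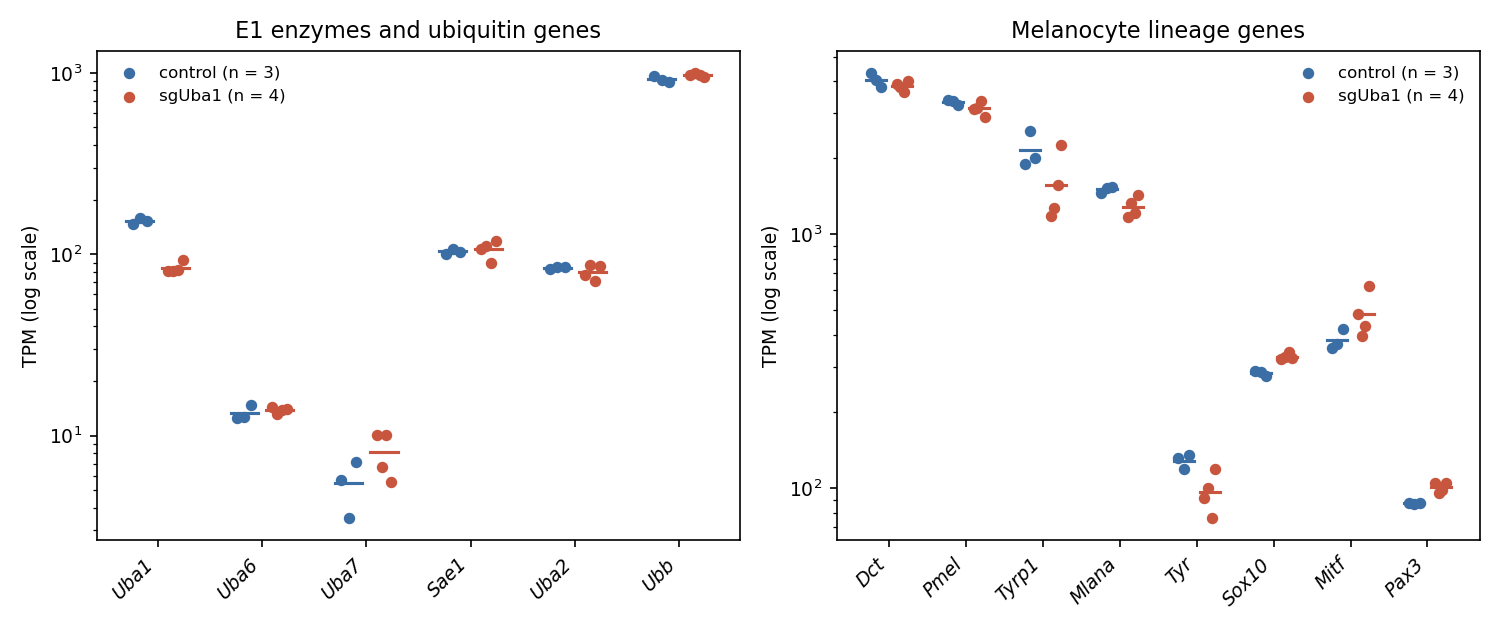
Points are TPM per tumor on a log axis for 3 controls (blue) and 4 sgUba1 tumors (red), with bars at group means, for E1 and ubiquitin genes on the left and melanocyte genes on the right. Uba1 separates the groups (146 TPM in control 1, 80.7 TPM in sgUba1 1) while Uba6 and Ubb overlap, and Dct stays between 3623 and 4309 TPM.

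Among axon guidance ligands, 3 of 35 tested genes fell and 0 rose (of all genes, 0.456% fell and 0.268% rose; median −0.05). Slit2 encodes a secreted repellent that binds ROBO receptors. Its level was 10.2, 9.77 and 6.71 CPM in control tumors against 2.17, 2.01, 2.93 and 1.66 CPM in sgUba1 tumors. The highest sgUba1 value lay under the lowest control (log2 fold change −2.02, standard error 0.208, edgeR's adjusted p = 0.00158). Sema3g, a secreted semaphorin that signals through neuropilin-2, had 29.9, 11.8 and 32.1 CPM in control tumors against 3.36, 3.69, 2.05 and 3.19 CPM in sgUba1 tumors. Control 2 stood apart from the other controls but still exceeded every sgUba1 tumor (log2 fold change −2.99, standard error 0.323, edgeR's adjusted p = 0.00229). Sema3e, the ligand of plexin-D1, had 2.95, 5.20 and 3.58 CPM in control tumors against 1.54, 1.18, 1.67 and 1.95 CPM in sgUba1 tumors. Its groups did not overlap (log2 fold change −1.30, standard error 0.235, edgeR's adjusted p = 0.0386), yet the call held under 5 of 16 alternatives, being lost without any 1 tumor other than sgUba1 4. The most abundant ligands were not called: Sema3b was at 48.9, Rgmb at 46.3 and Efna5 at 36.9 TPM, with log2 fold changes of −0.10, 0.51 and −0.04.

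Among guidance receptors, 2 of 42 fell and 1 rose (0.456% and 0.268% of all genes; median −0.02). Robo2 (chromosome 16 from 73891839 to 74411825), the receptor of SLIT proteins, had 6.79, 7.72 and 5.63 CPM in control tumors against 0.735, 0.168, 0.723 and 0.424 CPM in sgUba1 tumors. All 4 sgUba1 values were under 1 CPM and all 3 controls above 5 CPM, a 13.2-fold lower level (log2 fold change −3.72, standard error 0.326, edgeR's adjusted p = 5.49e-04). Epha7, a receptor tyrosine kinase for A-type ephrins, had 1.52, 2.25 and 1.63 CPM in control tumors against 0.245, 0.134, 0.304 and 0.130 CPM in sgUba1 tumors, with no overlap (log2 fold change −3.15, standard error 0.326, edgeR's adjusted p = 0.00160). DESeq2 gave Epha7 no adjusted p and so made no call, while every alternative that gave one called it. Cdon, a co-receptor of hedgehog and netrin signaling, had 20.7, 20.7 and 23.2 CPM in control tumors against 31.3, 33.3, 34.5 and 38.4 CPM in sgUba1 tumors. Every sgUba1 tumor exceeded every control (log2 fold change 0.67, standard error 0.0885, edgeR's adjusted p = 0.00850). That call was lost without control 1 or without control 2. The abundant receptors of the list gave no call: Nrcam, Epha3 and Unc5c averaged 196, 169 and 139.6 TPM and had log2 fold changes of −0.29, −0.25 and 0.05. In control tumors, Slit2 stood at 1.90, 1.79 and 1.30, Robo2 at 2.59, 3.87 and 3.32, Epha7 at 0.456, 0.666 and 0.660 and Sema3g at 9.47, 3.65 and 10.6 TPM, and the summed levels of both guidance lists overlapped between groups.

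The synapse and neuronal list had 5 of 86 genes lower and 1 higher (0.456% and 0.268% of all genes; median 0.01). Scn2a, a voltage-gated sodium channel, had 1.89, 2.80 and 2.19 CPM in control tumors against 0.210, 0.403, 0.342 and 0.228 CPM in sgUba1 tumors, with no overlap (log2 fold change −2.94, standard error 0.277, edgeR's adjusted p = 8.13e-04). Gria4, an AMPA-type glutamate receptor subunit, had 10.3, 11.9 and 10.5 CPM in control tumors against 4.62, 5.74, 5.25 and 5.47 CPM in sgUba1 tumors, with every sgUba1 value below every control (log2 fold change −1.04, standard error 0.116, edgeR's adjusted p = 0.00271). The Gria4 call held under 15 of 16 alternatives and was lost in the fit of 17 tumors.

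Nptx1, a pentraxin that gathers AMPA receptors at synapses, had 11.6, 6.62 and 4.28 CPM in control tumors against 1.12, 1.54, 2.13 and 0.619 CPM in sgUba1 tumors. Controls varied widely but all exceeded the sgUba1 tumors (log2 fold change −2.48, standard error 0.398, edgeR's adjusted p = 0.0239), and the call held under 10 of 16 alternatives, lost without controls 1 or 2 or sgUba1 1 or 2. Tubb3, the neuronal beta-tubulin, had 76.4, 69.1 and 70.9 CPM in control tumors against 41.8, 57.4, 49.9 and 49.7 CPM in sgUba1 tumors. The groups were separate (log2 fold change −0.54, standard error 0.0966, edgeR's adjusted p = 0.0386), and the call held under 7 of 16 alternatives. Tubb3 begins at 123411424 on chromosome 8, just after Mc1r ends at 123410744 on the same strand, so reads that run on from one to the other could be shared between them. Cacna1c, a pore subunit of L-type calcium channels, rose, with 41.1, 37.2 and 41.7 CPM in control tumors against 68.7, 60.5, 66.8 and 71.4 CPM in sgUba1 tumors. All sgUba1 tumors were above all controls (log2 fold change 0.74, standard error 0.0758, edgeR's adjusted p = 0.00155), and the call held under 16 of 16 alternatives. Of the 148 listed genes, 17 had 0 counts in every tumor, among them Gria1, Grm7 and Elavl4, and 96 stayed under 1 TPM throughout. The summed level of the list was 973, 930.1 and 937 TPM in control tumors against 907, 877, 928 and 921 TPM in sgUba1 tumors, without overlap, and Ptprs, a receptor phosphatase at synapses, was its most abundant gene at 140.4 TPM.

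**Figure D3:**
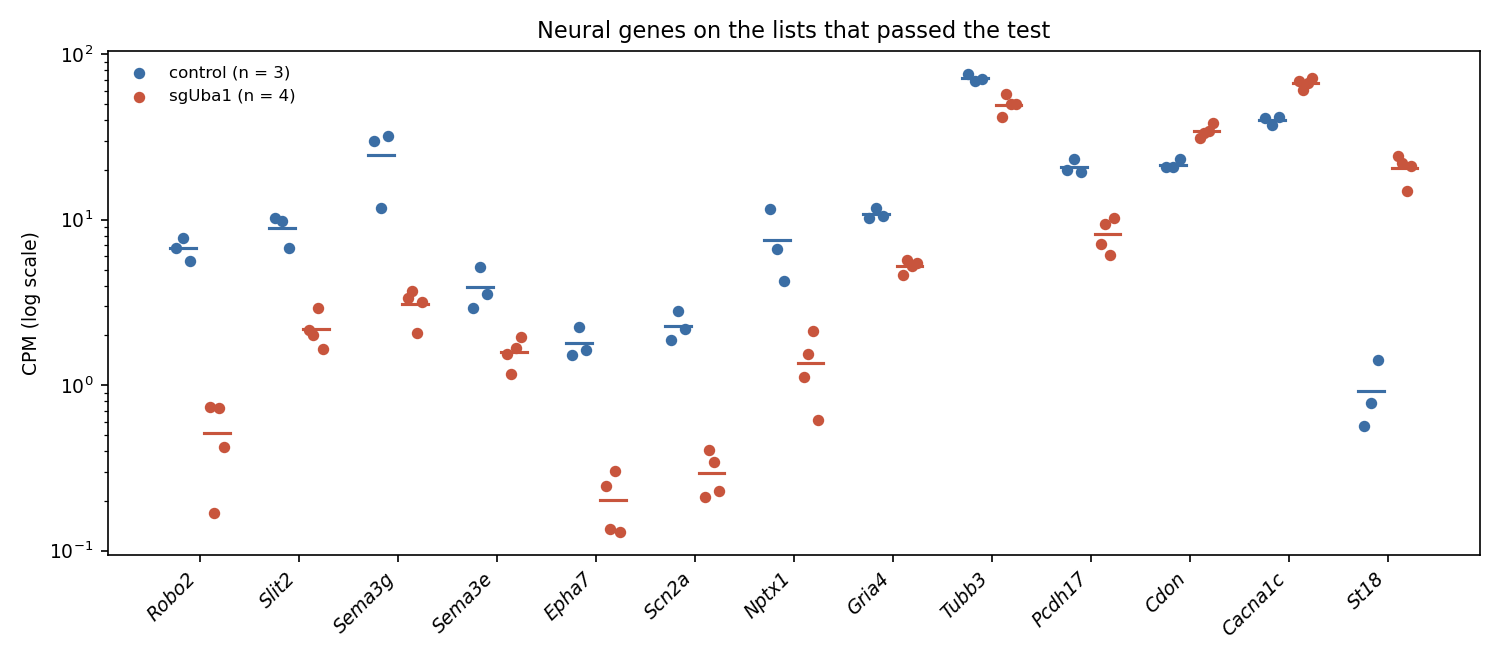
CPM per tumor on a log axis for 13 guidance, synaptic, protocadherin and Schwann genes that passed the test, with controls (n = 3) in blue, sgUba1 tumors (n = 4) in red and bars at group means. Robo2 drops from 6.71 to 0.512 CPM and St18 goes from 0.923 to 20.6 CPM, with no overlap for any gene shown.

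On the list of 17 tested Schwann and myelin genes, St18 rose and 0 fell (of all genes, 0.268% rose and 0.456% fell; median 0.00). St18 (ENSMUSG00000033740.17, chromosome 1 from 6487231 to 6860940) had 0.563, 0.781 and 1.43 CPM in control tumors against 24.4, 21.9, 14.95 and 21.2 CPM in sgUba1 tumors. Every sgUba1 tumor was far above every control, and St18 rose 22.5-fold (log2 fold change 4.49, standard error 0.282, edgeR's adjusted p = 6.88e-05). The abundant myelin and glial genes of the list did not follow: Mbp, S100b and Erbb3 averaged 576, 128 and 77.1 TPM, with log2 fold changes of 0.00, 0.03 and 0.03. Of the 10 listed protocadherin and cadherin genes tested, only Pcdh17, a neuronal adhesion molecule, fell and 0 rose (0.456% and 0.268% of all genes). Pcdh17 had 19.9, 23.2 and 19.5 CPM in control tumors against 7.10, 9.37, 6.13 and 10.2 CPM in sgUba1 tumors, with no overlap (log2 fold change −1.34, standard error 0.165, edgeR's adjusted p = 0.00554). Pcdhb4, a protocadherin outside the list, also fell (−1.20, edgeR's adjusted p = 0.0213, named after its values were seen). Neural crest regulators held 0 called genes of 44 (median 0.08): Zeb2, Sox6 and Ets1, the most abundant, averaged 236, 192 and 175 TPM and had values of −0.01, 0.28 and 0.16. Foxd3, Hand2 and Gfra3 had 0 counts in all 7 tumors, and Ngfr, a marker of neural crest-like melanoma states, stayed near 0.118 TPM and was too low to test.

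The melanocyte lineage was described by 39 tested genes, of which 0 passed (median −0.14), with 29 below 0 and 10 above. Tyrp1, which acts late in eumelanin synthesis, had 2682, 3683 and 2755 CPM in control tumors against 1582, 1761, 2187 and 3029 CPM in sgUba1 tumors, so sgUba1 4 reached the range of the controls (log2 fold change −0.51, standard error 0.203, edgeR's adjusted p = 0.265). Tyr, the rate-limiting enzyme of melanin synthesis, had 539, 492 and 524 CPM in control tumors against 350.2, 392, 302 and 465 CPM in sgUba1 tumors. Here all sgUba1 tumors lay below all controls, but the difference missed the threshold (log2 fold change −0.46, standard error 0.124, edgeR's adjusted p = 0.141). Dct and Pmel, the most abundant members, had log2 fold changes of −0.14, edgeR's adjusted p = 0.374, and −0.14, edgeR's adjusted p = 0.415. Mlana, a melanosome protein, had −0.28, with edgeR's adjusted p = 0.171.

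The regulators Mitf, Sox10 and Pax3, which drive pigment cell genes, had values on the other side of 0. Mitf had 652, 699 and 758 CPM in control tumors against 847, 722, 743 and 1099 CPM in sgUba1 tumors, with sgUba1 4 the highest of all 7 (log2 fold change 0.28, standard error 0.136, edgeR's adjusted p = 0.342). Sox10 had 0.14 and Pax3 0.15, with edgeR's adjusted p = 0.354 and 0.254. Axl, a kinase marking dedifferentiated melanoma, had 91.2, 58.2 and 104 CPM in control tumors against 119.7, 120.3, 127 and 55.6 CPM in sgUba1 tumors, and sgUba1 4 was the lowest of all 7 (log2 fold change 0.32, standard error 0.272, edgeR's adjusted p = 0.581). Chosen after their values were seen, Mc1r, the melanocortin receptor that sets pigment type, had 136, 151 and 125 CPM in control tumors against 80.1, 113, 102 and 87.1 CPM in sgUba1 tumors (log2 fold change −0.52, standard error 0.117, edgeR's adjusted p = 0.0912), and Kit, the melanoblast growth factor receptor, had a log2 fold change of −0.54, edgeR's adjusted p = 0.125. Summed over the list, melanocyte transcripts came to 18334, 18720.5 and 17643 TPM in control tumors against 16248, 16443, 16521 and 17901 TPM in sgUba1 tumors, and the groups overlapped only through sgUba1 4.

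Metabolic lists had 0 called genes of their members in edgeR's test, though most medians were below that of all genes. Glycolysis had a median of −0.25 with 21 of 24 genes below 0, and hypoxia response genes −0.22 with 20 of 25. Gapdh, at 10820.2 TPM the fifth most abundant transcript, had 9864, 10016 and 8711 CPM in control tumors against 7584, 7638, 10333 and 6781 CPM in sgUba1 tumors. Of the sgUba1 tumors, 3 lay under the controls and sgUba1 3 above them (log2 fold change −0.24, standard error 0.130, edgeR's adjusted p = 0.393). The same tumor held the highest level of its group for Ldha, the enzyme that makes lactate, at 2082 CPM against 1618, 1637 and 1575 CPM, and for Bnip3, a hypoxia-induced mitochondrial protein. Summed glycolysis transcripts were 31723, 32019 and 29278 TPM in control tumors against 26925, 25439, 32733 and 23626 TPM in sgUba1 tumors.

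In mitochondria, nuclear and mitochondrial genomes gave medians of opposite sign. Nuclear genes of oxidative phosphorylation had a median of −0.16, with 64 of 71 below 0, and the TCA cycle −0.18, with all 22 below 0. The 13 genes of the mitochondrial genome had a median of 0.13, with 10 above 0. Atp5b, a subunit of ATP synthase, had −0.14 and mt-Co1, a subunit of cytochrome oxidase, −0.06. Cholesterol synthesis had −0.19 (Fdps, which makes farnesyl diphosphate, −0.13), fatty acid and lipid genes −0.15 (Scd2, a desaturase, −0.19), and the pentose phosphate and NRF2 list −0.17. Summed cholesterol synthesis transcripts were 1516, 1478.5 and 1454 TPM in control tumors against 1354, 1387, 1235 and 1447 TPM in sgUba1 tumors. Fatty acid and lipid transcripts were 3052, 3041 and 2939 TPM in control tumors against 2924, 2724, 2833 and 2803 TPM in sgUba1 tumors. The groups were separate for both sums, whereas those of the other metabolic lists overlapped. Serine and one-carbon genes stood at −0.05 and amino acid transport and stress genes at −0.04.

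Single metabolic enzymes outside those lists did change. Pgam2, the muscle form of phosphoglycerate mutase, fell, with 5.66, 6.33 and 5.08 CPM in control tumors against 1.54, 1.54, 0.799 and 2.70 CPM in sgUba1 tumors (log2 fold change −1.78, standard error 0.298, edgeR's adjusted p = 0.0284). Dpyd, which breaks down pyrimidines, fell from 4.70 ± 0.435 CPM (SD, n = 3) to 1.59 ± 0.317 CPM (SD, n = 4) (log2 fold change −1.56, standard error 0.179, edgeR's adjusted p = 0.00348). Slc25a34, a mitochondrial carrier, fell from 39.5 ± 3.29 CPM (SD, n = 3) to 15.9 ± 3.72 CPM (SD, n = 4) (log2 fold change −1.31, standard error 0.151, edgeR's adjusted p = 0.00348). Ppp1r3b, a subunit that directs protein phosphatase 1 to glycogen, rose from 1.69 ± 0.565 CPM (SD, n = 3) to 6.57 ± 2.59 CPM (SD, n = 4) (log2 fold change 1.96, standard error 0.328, edgeR's adjusted p = 0.0282). Groups were separate for all 4 genes, and the calls of Pgam2 and Ppp1r3b, each held under 10 of 16 alternatives, were lost without control 1 and without control 2. Dpyd and Slc25a34 were called under 13 of 16 and 15 of 16 alternatives. Chosen after their values were seen, Gpd1 (−0.55), which links glycolysis to lipid synthesis, Sord (−0.39), which oxidizes sorbitol, Ak1 (−0.72), an adenylate kinase, and the thiamine transporter Slc19a2 (−0.58) also fell, while the deacylase Sirt5 (0.34) rose, with edgeR's adjusted p between 0.00975 and 0.0404. These 5 were called under 10 of 16, 6 of 16, 13 of 16, 9 of 16 and 8 of 16 alternatives, and without control 2 only Ak1 kept its call, which it lost without control 1.

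Heat shock (0 of 20, median 0.00), unfolded protein response (0 of 23, 0.00) and proliferation genes (0 of 42, 0.01) had medians close to that of all genes. Hspa8, Hsp90aa1 and Hsp90b1, abundant chaperones, had log2 fold changes of 0.18, 0.06 and 0.01. Of 25 p53 target genes, 2 fell and 0 rose (0.456% and 0.268% of all genes; median −0.16), with 22 below 0. Psrc1, a spindle protein induced by p53, had 87.8, 94.2 and 71.9 CPM in control tumors against 47.1, 50.6, 43.2 and 54.2 CPM in sgUba1 tumors (log2 fold change −0.79, standard error 0.103, edgeR's adjusted p = 0.00826), with the groups separate and the call lost without control 1. Tnfrsf10b, the mouse TRAIL death receptor, had 24.3, 28.3 and 24.5 CPM in control tumors against 19.1, 16.99, 19.1 and 18.5 CPM in sgUba1 tumors (log2 fold change −0.48, standard error 0.0875, edgeR's adjusted p = 0.0413), a call that held under 6 of 16 alternatives. Cdkn1a, which encodes p21, had −0.39, and Trp53 itself −0.01. Summed p53 target transcripts were 1046, 941 and 985 TPM in control tumors against 919.6, 829, 826 and 817 TPM in sgUba1 tumors, without overlap. Immediate early genes had 0 called of 27 (median −0.12).

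Stromal and immune markers gave 0 calls in edgeR's test in any of 11 cell type lists or in the interferon list, with medians on both sides of that of all genes. In whole tumors, fewer cells of a type and less RNA per cell cannot be told apart. Macrophage and monocyte genes had a median of 0.60, with 25 of 26 above 0. Lyz2, lysozyme of myeloid cells, had 35.5, 34.6 and 53.6 CPM in control tumors against 77.7, 56.7, 59.5 and 56.3 CPM in sgUba1 tumors, the sgUba1 tumors all above the controls but short of the threshold (log2 fold change 0.60, standard error 0.166, edgeR's adjusted p = 0.148). Apoe, the most abundant gene of that list and one that melanoma cells also express, had −0.19 and set the list's summed level, 1339.9, 1274 and 1322 TPM in control tumors against 1400.2, 1366, 1340.1 and 1285 TPM in sgUba1 tumors. T and NK cell genes had a median of 0.44 with all 10 tested genes above 0, and sums of 11.03, 11.02 and 13.8 TPM in control tumors against 16.4, 15.7, 18.2 and 18.6 TPM in sgUba1 tumors that did not overlap. Their levels were low, with Cd3d, the most abundant, at 3.64 TPM, and 20 of 26 listed genes under 1 TPM throughout. Interferon-stimulated genes had a median of 0.51, 57 of 60 above 0, with summed levels of 1518, 1038 and 2193 TPM in control tumors against 2577, 2038, 2451 and 1650.5 TPM in sgUba1 tumors. Control 2 was lowest of all tumors in that sum and the groups overlapped. The listed symbols H2-K1, H2-D1 and H2-T23 were not matched and are not in the interferon values, nor are Trac, Trbc1 and Trbc2 in the T and NK cell values.

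Fibroblast and collagen genes (35 tested) had a median of 0.14 and sums of 2058, 2259 and 2467 TPM in control tumors against 2285, 2315, 2819 and 2235 TPM in sgUba1 tumors, mostly from Vim, which melanoma cells express as well. Endothelial genes (24 tested) had a median of 0.02, with Eng at 99.0 and Egfl7 at 38.3 TPM, and pericyte and smooth muscle genes (10 tested) −0.06. Dendritic cell and neutrophil lists had medians of 0.23 and 0.33 over 9 and 8 genes, and Ly6g, a neutrophil marker, had 0 counts in all tumors. Adipocyte genes had a median of −0.57 over 9 genes, led by Fabp4 at 35.1 TPM, and of 20 keratinocyte genes only 3 were tested, with Krt5, Krt15 and Krt1 at 0 counts.

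Blood and muscle varied by tumor. Red blood cell genes had a median of 1.53 over 7 genes, and their sums were 1044, 1636 and 598 TPM in control tumors against 646, 2819, 1880.0 and 7149 TPM in sgUba1 tumors, led by Hbb-bs at 899.7 TPM. Skeletal muscle genes had 1.66 over 19 genes, with sums of 21.9, 21.7 and 120.0 TPM in control tumors against 35.5, 153, 32.8 and 432 TPM in sgUba1 tumors, led by Acta1 at 16.9 TPM. In both lists sgUba1 4 was highest and the groups overlapped, and 18 of 19 and all 7 genes were above 0. The part of these cell types in the called genes was not tested. Without sgUba1 4, 320 genes were called, among them all 127.

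**Figure D4:**
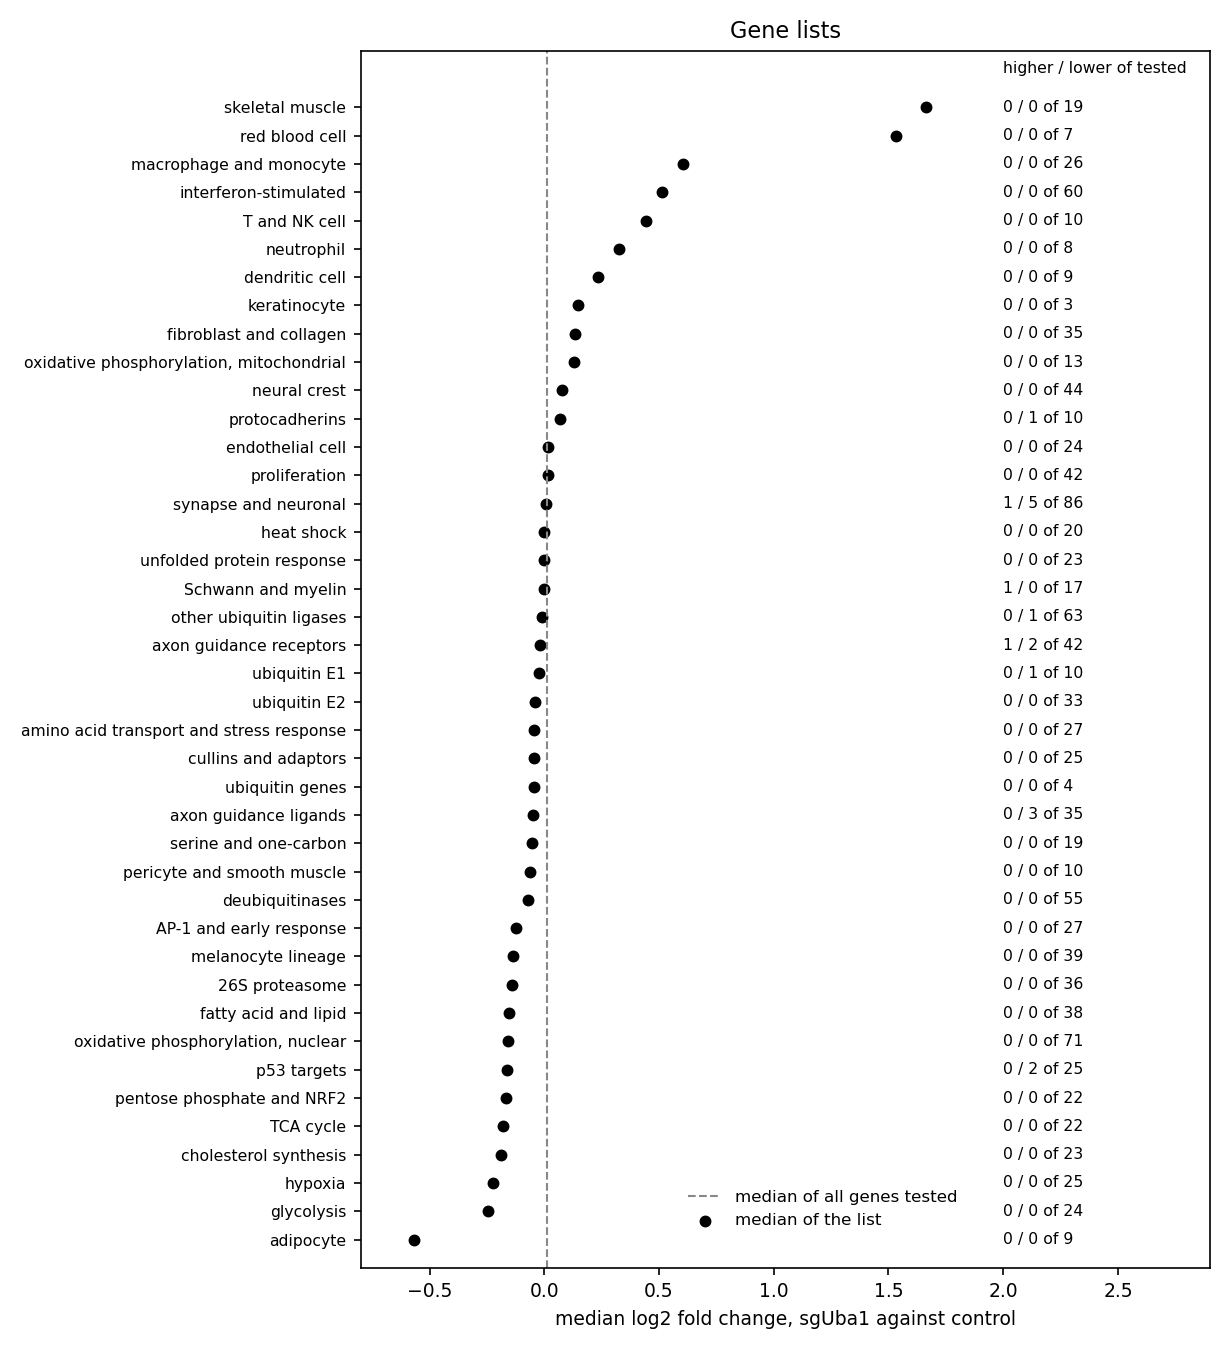
Each row is a gene list, the point is the median log2 fold change (sgUba1 against control) of its tested genes on the x axis, the dashed line is the median of all tested genes (0.01), and the text at the right counts members that passed higher and lower of those tested. Skeletal muscle (1.66) and red blood cell (1.53) lie far to the right with 0 calls. Called members fall in neural, guidance, p53, ligase and E1 lists, whose medians lie between −0.16 and 0.07, and 109 of the 127 called genes are on no list.

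Genes outside the lists were named as the largest changes by the naming rule. Rfx3 (ENSMUSG00000040929.17, chromosome 19 from 27761721 to 28011166), a transcription factor of cilia genes, had 192, 184 and 183 CPM in control tumors against 65.6, 58.9, 59.2 and 59.5 CPM in sgUba1 tumors. Values within each group were tight and 3.07-fold apart (log2 fold change −1.62, standard error 0.0616, edgeR's adjusted p = 2.63e-06), the smallest p of all genes. Dach1, a transcriptional co-repressor of eye and limb development, fell from 5.14 ± 1.15 CPM (SD, n = 3) to 0.976 ± 0.229 CPM (SD, n = 4) (log2 fold change −2.39, standard error 0.220, edgeR's adjusted p = 6.83e-04). Lgr5, a stem cell receptor for R-spondins, fell from 9.65 ± 2.96 CPM (SD, n = 3) to 3.85 ± 0.535 CPM (SD, n = 4) (log2 fold change −1.33, standard error 0.198, edgeR's adjusted p = 0.0159). Myzap, a cardiac junction protein, fell from 4.55 ± 0.361 CPM (SD, n = 3) to 1.18 ± 0.208 CPM (SD, n = 4) (log2 fold change −1.94, standard error 0.173, edgeR's adjusted p = 5.90e-04). Klhdc7a, a kelch domain gene, fell from 3.46 ± 0.601 CPM (SD, n = 3) to 1.23 ± 0.275 CPM (SD, n = 4) (log2 fold change −1.49, standard error 0.209, edgeR's adjusted p = 0.0108). Lgr5 and Klhdc7a were each called under 11 of 16 alternatives, and both calls were lost without control 1, that of Klhdc7a also without control 2. Myzap was called under 15 of 16 alternatives and lost its call as log2(TPM + 0.1).

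Among increases, Bicd2 (ENSMUSG00000037933.16, chromosome 13 from 49341585 to 49387026), an adaptor that links cargo to the dynein motor, had 104, 73.6 and 86.9 CPM in control tumors against 343, 297, 292 and 278 CPM in sgUba1 tumors. The lowest sgUba1 value exceeded the highest control by more than the controls' whole range (log2 fold change 1.78, standard error 0.120, edgeR's adjusted p = 9.99e-05). Eml6, a microtubule-associated protein, had 24.7, 24.5 and 27.7 CPM in control tumors against 129.9, 122, 121 and 87.9 CPM in sgUba1 tumors, again far apart (log2 fold change 2.16, standard error 0.131, edgeR's adjusted p = 6.88e-05). Fem1al, a substrate receptor homolog of cullin ligases, rose from 1.41 ± 0.258 CPM (SD, n = 3) to 7.56 ± 1.64 CPM (SD, n = 4) (log2 fold change 2.42, standard error 0.220, edgeR's adjusted p = 6.63e-04), but it lies on chromosome 11 from 29822395 to 29825668, inside Eml6 (29743048 to 30026033) and on the same strand, so its reads may be shared with Eml6. Unc13b, which primes vesicles for release, rose from 3.56 ± 0.391 CPM (SD, n = 3) to 10.2 ± 0.709 CPM (SD, n = 4) (log2 fold change 1.52, standard error 0.123, edgeR's adjusted p = 2.94e-04). Its call held under 15 of 16 alternatives and was lost in the fit of 17 tumors. Col27a1, a fibrillar collagen chain of cartilage, rose from 3.46 ± 0.592 CPM (SD, n = 3) to 8.34 ± 1.59 CPM (SD, n = 4) (log2 fold change 1.26, standard error 0.183, edgeR's adjusted p = 0.0136). Nfix, Loxl4, Anks6, Pwwp3b, Gm32455 and 4930524B17Rik rose by log2 fold changes of 0.99 to 2.55, and they were called under 5 of 16, 8 of 16, 8 of 16, 12 of 16, 16 of 16 and 14 of 15 alternatives in that order. Col27a1 (called under 10 of 16), Nfix, Loxl4 and Anks6 lost their calls without control 1 and without control 2, Pwwp3b without control 2 and 4930524B17Rik without control 1.

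Some genes were nearly silent in 1 group only. Nlrp4c, of the NLR family and known from germ cells, had 0, 0 and 1 counts in control tumors against 128, 97, 90 and 88 in sgUba1 tumors. The ratio of pooled counts per effective library was 327 (95% interval 58.3 to 12943), an interval for counting error only. The following genes were chosen after their values were seen. Ntm, a neural adhesion molecule of the IgLON family, had 0, 2 and 2 counts in control tumors against 70, 79, 71 and 75 in sgUba1 tumors, a ratio of 59.8 (95% interval 23.1 to 221). Cck, the neuropeptide cholecystokinin, had 55, 29 and 33 counts in controls and 2, 1, 2 and 1 in sgUba1 tumors, a ratio of 24.0 (95% interval 10.7 to 66.8) in the other direction. Ott, an X-linked germline gene, had 21, 45 and 32 counts in controls and 0 in every sgUba1 tumor, at least 9.93-fold lower against a floor of 3 counts per library. Each passed edgeR's test, with adjusted p = 6.88e-05, 1.01e-04, 0.00155 and 0.00826, but the calls of Cck and Ott were lost under DESeq2 and in the fit of 17 tumors.

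The genes that follow were chosen after their values were seen. Adam12, a membrane metalloprotease, fell from 206 ± 24.1 CPM (SD, n = 3) to 85.3 ± 7.74 CPM (SD, n = 4) (log2 fold change −1.27, standard error 0.0951, edgeR's adjusted p = 1.69e-04). Grm8, a glutamate receptor, fell and had 0.927, 1.68 and 0.730 CPM in control tumors against 0.245, 0.0336, 0.0761 and 0.130 CPM in sgUba1 tumors (log2 fold change −3.16, standard error 0.506, edgeR's adjusted p = 0.0239), a call that held under 6 of 14 alternatives and was lost under DESeq2 and without control 1, control 2, sgUba1 2 or sgUba1 3. Anxa1, a phospholipid-binding protein of inflammation, fell (−0.53, edgeR's adjusted p = 0.0258, called under 12 of 16 alternatives). Tgfb1, an immunosuppressive cytokine, had 10.4, 9.74 and 12.5 CPM in control tumors against 17.1, 18.0, 20.2 and 18.1 CPM in sgUba1 tumors and rose (log2 fold change 0.75, standard error 0.111, edgeR's adjusted p = 0.0144). Pdcd1lg2, which encodes the PD-1 ligand PD-L2, had 0.199, 0.116 and 0.313 CPM in control tumors against 2.76, 1.75, 1.67 and 1.08 CPM in sgUba1 tumors, all sgUba1 values above all controls (log2 fold change 3.12, standard error 0.429, edgeR's adjusted p = 0.0101). Enpp2, the enzyme autotaxin, rose from 210.0 ± 6.72 CPM (SD, n = 3) to 329 ± 34.2 CPM (SD, n = 4) (log2 fold change 0.65, standard error 0.0866, edgeR's adjusted p = 0.00910). The calls of Anxa1, Tgfb1, Pdcd1lg2 and Enpp2 were all lost without control 1 and without control 2, and those of Anxa1 and Tgfb1 also without sgUba1 2.

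On chromosome X, genes were named after their values were seen, apart from Gm14762. Trap1a, a tumor rejection antigen gene, had 2.02, 1.53 and 1.88 CPM in control tumors against 0.0700, 0.134, 0.0761 and 0.0652 CPM in sgUba1 tumors, with no overlap (log2 fold change −4.32, standard error 0.314, edgeR's adjusted p = 1.59e-04). DESeq2 gave Trap1a no adjusted p and so made no call, while every alternative that gave one called it. 4932411N23Rik also fell and Tceal8, a small transcription elongation factor-like gene, fell by 0.83 on the log2 scale, a call lost without control 1 and without control 2. The neighboring transcripts Gm14761 and Gm14762, which lie within 85823168 to 85834831, rose together: Gm14762 had 0.794, 1.19 and 1.53 CPM in control tumors against 15.6, 10.3, 9.93 and 9.38 CPM in sgUba1 tumors (log2 fold change 3.27, standard error 0.258, edgeR's adjusted p = 2.57e-04). As a median, the 561 tested X genes had −0.02, near that of all genes, with 4 called higher and 5 lower, Uba1 among them (1.60%, against 0.724% of all genes). Xist, the RNA that coats the inactive X, had 52.1, 2.72 and 82.8 CPM in control tumors against 82.5, 71.6, 79.1 and 79.8 CPM in sgUba1 tumors. Control 2 stood apart from all other tumors, and the gene was not called (log2 fold change 0.78, standard error 0.680, edgeR's adjusted p = 0.598). Kdm5d and Ddx3y, Y-linked genes, averaged 1.65 and 0.249 TPM and overlapped between groups.

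Small shifts covered whole chromosomes. Chromosome 17 had a median log2 fold change of 0.15 over 854 tested genes, with 82.2% above 0 against 52.6% of all genes. The median difference from the mean of the controls was 0.03, −0.04 and 0.02 in control tumors against 0.15, 0.13, 0.16 and 0.14 in sgUba1 tumors, without overlap. All 9 segments of 10 Mb with at least 20 genes had medians between 0.13 and 0.20, so the shift ran along the whole chromosome. Chromosome 9 had a median of 0.10 over 1054 genes, with 72.8% above 0 and all 13 segments above 0. Per tumor the values were 0.01, −0.02 and 0.02 in control tumors against 0.10, 0.07, 0.09 and 0.10 in sgUba1 tumors. Chromosome 13 had a median of 0.06 over 784 genes, with 60.6% above 0 and 10 of 12 segments above 0. Chromosome 1 had a median of 0.05 over 1014 genes, with 61.0% above 0 and all 19 segments above 0. On the low side, chromosome 8 had −0.07, with 37.8% above 0 and 1 of 13 segments above 0. In Myc-CaP tumors fitted alone, medians of sgUba1 against control were 0.22 on chromosome 11, −0.17 on 19, −0.14 on 3, −0.11 on 9 and 0.05 on 17. These are descriptions without a test, and DNA copy number was not analysed here.

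Of the 854 genes tested on chromosome 17, 4 rose and 1 fell (0.585%, against 0.724% of all genes), and they were named after their values were seen. Smchd1, which maintains silencing on the inactive X, had 131, 134 and 133 CPM in control tumors against 173, 161, 160.0 and 168 CPM in sgUba1 tumors (log2 fold change 0.32, standard error 0.0575, edgeR's adjusted p = 0.0386). Nfya, a subunit of the CCAAT-binding factor, Trim26, a ubiquitin ligase of the interferon response, and Neurl1b, a ligase of Notch ligands, rose by 0.38, 0.37 and 0.54 on the log2 scale, and Slc37a1, a sugar phosphate exchanger, fell (−0.36, edgeR's adjusted p = 0.0413). None of these 5 calls held when control 1 or control 2 was left out.

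**Figure D5:**
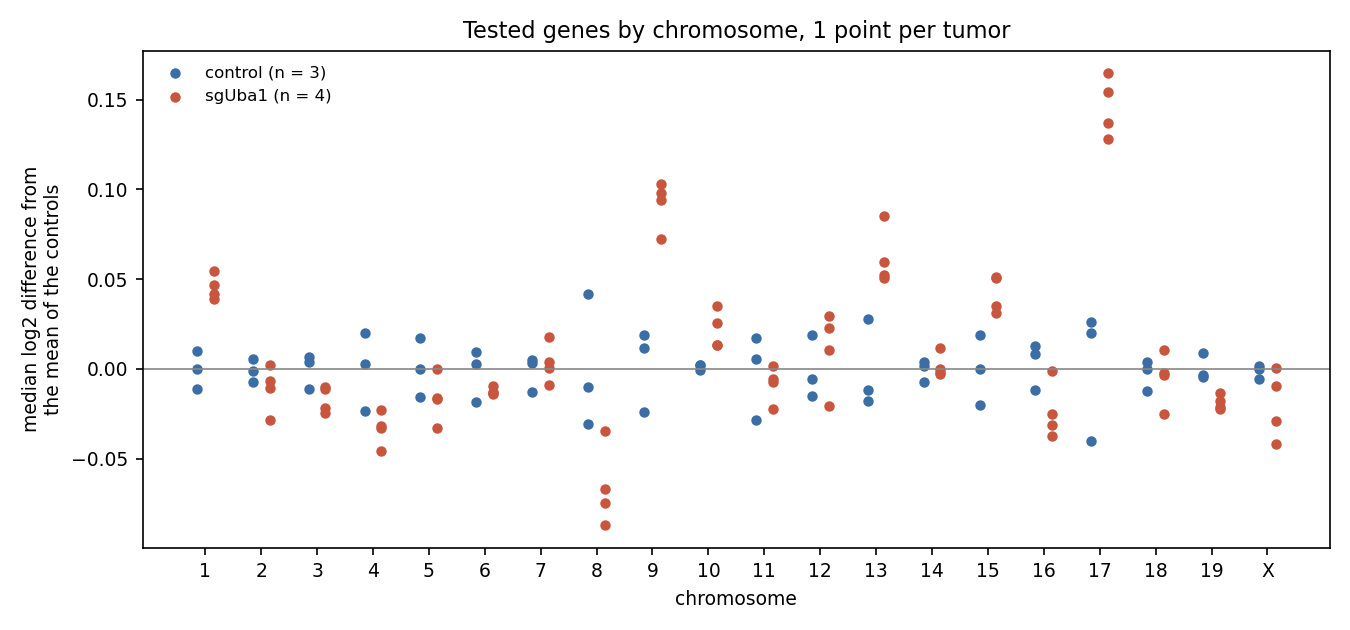
For each chromosome on the x axis, points give 1 tumor's median log2 difference from the mean of the controls over the tested genes, with 3 controls in blue and 4 sgUba1 tumors in red. On chromosome 17 the sgUba1 tumors lie between 0.13 and 0.16 and the controls between −0.04 and 0.03.

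The other sgUba1 tumor experiment of the series, in Myc-CaP with 3 controls and 7 sgUba1 tumors, was used to ask which changes differ between the models, with the difference itself tested as an interaction over 17 tumors. Myc-CaP tumors grew in FVB mice, for which the methods name males, so the models also differ in host strain and sex. Uba1 RNA was not lowered in all Myc-CaP tumors labelled sgUba1: its level was 319, 323 and 337 CPM (lowest, median and highest) in its 3 controls and 196, 365 and 385 CPM in its 7 sgUba1 tumors, 3 of the 7 below all controls and 4 above all controls. These 7 tumors were fitted as 1 group, so each difference is taken against an effect averaged over this mix. The B16-BL6 effect differed for 266 of 17513 genes (1.52%, edgeR's adjusted p under 0.05). Leaving out 1 B16-BL6 tumor gave 29 (control 1), 31 (control 2), 78 (control 4), 83, 100, 68 and 182 (sgUba1 1 to 4). Slit2, lower in B16-BL6 sgUba1 tumors, was at 1.37, 1.90 and 2.33 CPM (lowest, median and highest) in its 3 controls and 3.12, 5.14 and 11.7 CPM in its 7 sgUba1 tumors, all 7 above all controls. The difference of log2 fold changes was −3.66, standard error 0.488, edgeR's adjusted p = 0.00268. Robo2 was nearly silent in Myc-CaP controls, at 0, 0 and 0.0805 CPM (lowest, median and highest) in its 3 controls and 0, 0.316 and 0.483 CPM in its 7 sgUba1 tumors, too low to size the difference.

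Rfx3 was at 2.15, 2.74 and 3.60 CPM (lowest, median and highest) in its 3 controls and 1.92, 2.58 and 3.32 CPM in its 7 sgUba1 tumors, so the groups overlapped there, and the difference was −1.47, standard error 0.216, edgeR's adjusted p = 0.00471. St18 (4.08, standard error 0.596, edgeR's adjusted p = 0.00471) and Bicd2 (1.60, standard error 0.243, edgeR's adjusted p = 0.00637) also differed between the models. For Uba1 itself the difference was not called (−0.80, standard error 0.307, edgeR's adjusted p = 0.182). Cacna1c was at 3.94, 4.395 and 4.81 CPM (lowest, median and highest) in its 3 controls and 5.93, 6.28 and 6.87 CPM in its 7 sgUba1 tumors, with all 7 above all controls, and its effect was not shown to differ between the models (0.20, standard error 0.130, edgeR's adjusted p = 0.429). Psat1, a serine synthesis enzyme, differed through Myc-CaP: it was at 184, 204 and 226 CPM (lowest, median and highest) in its 3 controls and 83.5, 102 and 127 CPM in its 7 sgUba1 tumors there, all 7 below all controls, and its log2 fold change was 0.17 in B16-BL6 tumors (difference 1.12, standard error 0.158, edgeR's adjusted p = 0.00373).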

How the data were processed

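Bulk RNA of 7 B16-BL6 tumors (3 control, 4 sgUba1) was compared, with 10 Myc-CaP tumors used for the difference between models. Per the labels the libraries were made with poly-A selection, whereas the study's methods name removal of ribosomal RNA. The deposited counts are expected counts from kallisto on mm10, per the submitters' processing notes, and the design had assumed whole counts, so they were rounded. The deposited TPM gave levels between genes and the summed levels of lists, and counts scaled to TMM library sizes (CPM) were computed. Library depth was 26347998 to 35693203 counts, and chi-square per degree of freedom between replicates shows spread above counting error. R 4.3.3 was used with edgeR 4.0.16, limma 3.58.1 and DESeq2 1.42.0, and coordinates came from GENCODE M21.

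Of 40077 genes, 14987 had 0 counts in all 7 tumors and 17539 passed filterByExpr. These entered edgeR's quasi-likelihood test, with a threshold of a Benjamini-Hochberg adjusted p under 0.05, and a gene that passed is called. The difference between models was an interaction contrast over 17513 genes in 17 tumors. The p-values measure spread between tumors, which are numbered and not stated to come from separate animals. Names followed a rule: Uba1; the 15 largest increases and decreases among called genes whose groups did not overlap and whose log2 CPM averaged 1 or more; of each list, up to 6 members that passed and the 3 with the highest TPM; and 14 fixed genes. Some genes that the rule names are not reported here. The members and lists were chosen with earlier results of these data known. In the table, 39 symbols stand at more than 1 gene and were read at the gene with the highest summed TPM. A further 12 listed symbols were not matched and were not analysed here. Among them were H2-K1, H2-D1 and H2-T23 (interferon list), H2-Aa, H2-Ab1 and H2-Eb1 (dendritic cell list) and Trac, Trbc1 and Trbc2 (T and NK cell list). Alternatives were DESeq2, limma-voom, RLE normalization, 2 other filters, a block for tumor number, all 17 tumors in 1 fit, log2 TPM with 2 pseudocounts and leaving out each tumor. The code was tested on simulated data.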

Additional observations from a re-analysis of the deposited data

Results flagged for a closer look

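Within the 4 sgUba1 tumors, 15 of 216 genes, 4 of 41 lists and 0 of 22 chromosomes had 1 tumor whose gap to the nearest other, over the whole range, passed Dixon's critical value, which chance does for about 1 in 20 groups. The genes were, in CPM, Cfd (6.65), Gm14762 (15.6), Kdm5d (6.89), Lyz2 (77.7) and Rfx3 (65.6) in sgUba1 1; Rgs5 (48.4) and Trap1a (0.134) in sgUba1 2; Efna5 (60.0), Ldha (2082) and mt-Nd4l (581) in sgUba1 3; and 4932411N23Rik (0.0977), Axl (55.6), B2m (304), Cdh13 (37.8) and Xpc (31.1) in sgUba1 4. For 4932411N23Rik the flag rests on 3 counts against 0 in each other sgUba1 tumor. Trap1a is also near 0 in this group, at 0.0652 to 0.134 CPM, so these 2 flags say little about a tumor. The lists, as summed TPM, were melanocyte lineage (17901 in sgUba1 4), axon guidance ligands (297 in sgUba1 4), p53 targets (919.6 in sgUba1 1) and fibroblast and collagen (2819 in sgUba1 3).

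For 28 of 216 named genes, against 266 of 17513 (1.52%) of all genes, the log2 fold change of sgUba1 against control differed between B16-BL6 and Myc-CaP tumors by edgeR's test of the difference itself. Of the 28, 26 had been called in B16-BL6, and naming genes for that call favors a difference. The difference (B16-BL6 minus Myc-CaP) was above 0 for Ntm (6.55), St18 (4.08), Gm14762 (3.22), Loxl4 (2.41), Ppp1r3b (2.39), Gm32455 (1.84), Fem1al (1.73), Bicd2 (1.60), Eml6 (1.31), Lama3 (1.31), Prex2 (1.28), Psat1 (1.12), Sirt5 (0.58) and Nfya (0.57). Robo2, Ntm and Trap1a stood below 1 CPM in every Myc-CaP tumor, so the size of their differences is not fixed by these counts. The difference was below 0 for Robo2 (−6.81), Trap1a (−4.18), Slit2 (−3.66), Dach1 (−3.52), Scn2a (−3.38), Sema3g (−2.49), Qsox2 (−2.44), Cyba (−1.85), Myzap (−1.64), Adam12 (−1.50), Rfx3 (−1.47), Atp13a2 (−1.19), Xpc (−1.08) and Usp5 (−0.58).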

How the results depend on the processing

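Against 127 called genes (47 higher, 80 lower), DESeq2 called 527 (199 higher, 328 lower), edgeR without a filter 204 (86 higher), and the fit of 17 tumors 34 (15 higher, 19 lower). As log2(TPM + 1) and log2(TPM + 0.1), 48 and 41 genes were lower. Limma-voom (135), RLE (127) and at least 10 counts in every library (104) stayed within 1.5 times. Leaving out 1 tumor gave 43 to 320 called, 15 to 130 higher and 28 to 197 lower; the total moved by over 1.5 times without control 1, 2 or 4 or sgUba1 1, 2 or 4. The interaction went from 266 to between 29 and 182, moving by over 1.5 times without every tumor except sgUba1 4. Uba1 kept −0.92 in the fit of 17 tumors but did not pass there. The chromosome 9 median, 0.10, was 0.14 as log2(TPM + 0.1) and 0.0762 to 0.10 with 1 tumor left out; that of chromosome 17, 0.15, was 0.20 and 0.12 to 0.16. As log2(TPM + 0.1) the median of all genes also moved, from 0.01 to 0.0650. No call changed sign under any alternative: of 74 named called genes, 21 were called under each of the 16 alternatives that tested them and 53 were lost under at least 1. A block for tumor number gave 127 calls, 73 of them shared with the fit without it. Correlations of same-numbered tumors were 0.155, −0.0491 and 0.164. Controls 1 and 2 correlated best with another number and control 4 with its own, and control 1 had 0.157 with sgUba1 3. Whether same-numbered tumors share more than a number cannot be told from these few weak correlations. With 3 and 4 tumors, unknown sublines and mixed host cells, an uncalled gene may still differ, and sgUba1 could not be separated from subline in these groups.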

Other observations

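The called genes given here were chosen after their values were seen. Prex2, an exchange factor for Rac, had 63.4, 58.5 and 55.2 CPM in control tumors against 119.7, 121, 112 and 108 CPM in sgUba1 tumors (log2 fold change 0.97, standard error 0.0713, edgeR's adjusted p = 1.66e-04, called under 16 of 16 alternatives). Eya1, a developmental phosphatase and transcription cofactor, had 175, 189.8 and 198 CPM in control tumors against 279, 253, 249 and 268 CPM in sgUba1 tumors (log2 fold change 0.48, standard error 0.0704, edgeR's adjusted p = 0.0138, called under 13 of 16 alternatives). Zic4, a zinc finger factor of the cerebellum, had 2.18, 1.99 and 2.78 CPM in control tumors against 4.65, 4.30, 4.03 and 4.69 CPM in sgUba1 tumors (log2 fold change 0.93, standard error 0.159, edgeR's adjusted p = 0.0300, called under 8 of 16 alternatives). Groups did not overlap for these 3 genes.

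Cyba, a subunit of NADPH oxidase, had 10.7, 10.5 and 10.6 CPM in control tumors against 5.18, 4.50, 6.09 and 5.86 CPM in sgUba1 tumors (log2 fold change −0.97, standard error 0.123, edgeR's adjusted p = 0.00702, called under 16 of 16 alternatives). The lysosomal genes Atp13a2, a polyamine transporter, and Smpd1, acid sphingomyelinase, had log2 fold changes of −0.61, edgeR's adjusted p = 0.00924, and −0.52, edgeR's adjusted p = 0.0254, and were called under 15 of 16 and 10 of 16 alternatives. Xpc, which detects DNA damage for repair, had 60.4, 42.4 and 60.8 CPM in control tumors against 33.4, 33.8, 33.4 and 31.1 CPM in sgUba1 tumors (log2 fold change −0.73, standard error 0.117, edgeR's adjusted p = 0.0241, called under 9 of 16 alternatives). Qsox2, a sulfhydryl oxidase, and Car6, a secreted carbonic anhydrase, had −1.06, edgeR's adjusted p = 0.00557, and −1.15, edgeR's adjusted p = 0.0418, and were called under 15 of 16 and 7 of 16 alternatives. Lama3, a laminin chain of basement membranes, had 0.96, edgeR's adjusted p = 0.0465, the neuronal amino acid transporter Slc6a15 −1.47, edgeR's adjusted p = 0.0168, and the ion channel subunit Asic4 −2.31, edgeR's adjusted p = 0.0307. These 3 genes were called under 5 of 16, 8 of 16 and 8 of 15 alternatives and lost their calls without control 1 and without control 2.

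Control 2 differed from the other controls in single genes, with Xist at 2.72 CPM against 52.1 and 82.8 CPM in controls 1 and 4.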
